A study of Mus musculus with 21 samples.

Results

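MHC class I molecules carry peptides from inside the cell to its surface, where CD8+ T cells read them. The heavy chains *H2-K1* and *H2-D1* pair with the light chain *B2m*. *Tap1* and *Tap2* form the transporter that moves peptides into the endoplasmic reticulum, and *Tapbp* (tapasin) helps load them. *Psmb8*, *Psmb9* and *Psmb10* are the catalytic subunits of the immunoproteasome, which stand in for *Psmb5*, *Psmb6* and *Psmb7* of the constitutive proteasome. *Nlrc5* is the transactivator of class I genes. These 10 genes were chosen by name and are described here among 55491 genes in each of 2 tables, skin and skin-draining lymph nodes. All 10 were found in both tables and all 10 passed the expression filter, which left 19101 tested genes in skin and 16173 in nodes. Interferons are known inducers of the whole group, and in the skin keratinocytes, endothelium and leukocytes can all express it.

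The *Ifnk* TG mice carry *Ifnk*, a type I interferon gene, under the keratin 14 promoter, which is active in the epidermis. The line was made on C57Bl/6 with a PiggyBac vector and then backcrossed to BALB/c, the strain of the WT mice. Skin was taken at 12 months of age from WT mice (n = 3 libraries), from nonlesional (NL) *Ifnk* TG skin (n = 2) and from lesional (L) *Ifnk* TG skin (n = 4). Inguinal lymph nodes came from WT and *Ifnk* TG mice, untreated (NoTx) or after repeated UVB exposure at 250 mJ/cm2, with 3 libraries for each of the 4 groups and no age given in the labels. According to the paper, exposure went on for weeks and nodes were harvested after a further observation period of weeks. Sex, body site and mouse are not given for a library, so p-values measure the spread between these libraries, which may be partly technical. *Ifnk* itself had 0 counts in every WT skin library, 6 and 0 counts in the NL libraries and 5 to 14 counts in the L libraries. Totals were 40499078 to 56511276 counts per skin library and 27599809 to 36428435 per node library, and the members had between 898 and 100302 counts in skin and between 2587 and 65403 in nodes. At such counts the spread between libraries, and not counting error, set the precision.

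Marker genes matched the labelled tissues. Summed expression of 5 keratinocyte genes (*Krt5*, *Krt14*, *Krt1*, *Krt10* and *Lor*) was 8004 to 23583 counts per 1000000 counts (CPM) in skin, against 1 gene passing the filter in nodes. Node libraries held 1670 to 2195 CPM of 6 T cell markers and 806 to 1663 CPM of 4 B cell markers. Summed expression of 4 skeletal muscle genes was 17575 to 25913 CPM in WT skin and 19576 to 22632 CPM in NL skin, but only 15 to 5113 CPM in L skin. In tissue RNA, a lower level of a cell type's genes may mean fewer cells or less RNA per cell, and these cannot be told apart. Nor can they be told apart from a difference in body site. The paper took lesional skin wherever lesions lay, and nonlesional skin from the back and from areas like those of lesions.

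The letters in front of the genes are shown first for the 5 members whose start regions best show how the group is built (RefSeq starts, build GRCm38.p6, 250 bases before to 50 after the start, 5′ to 3′ on the gene's strand). Capitals mark matches on either strand to an interferon-stimulated response element (GAAANNGAA or GAANNGAAA), a gamma-activated sequence (TTCNNNGAA), the enhancer A of class I genes (GGGANTCCC), the core of the X2 box of class I promoters (TGACGC) and a CCAAT box.
*H2-K1* (chr17:34000298-34000597, minus strand): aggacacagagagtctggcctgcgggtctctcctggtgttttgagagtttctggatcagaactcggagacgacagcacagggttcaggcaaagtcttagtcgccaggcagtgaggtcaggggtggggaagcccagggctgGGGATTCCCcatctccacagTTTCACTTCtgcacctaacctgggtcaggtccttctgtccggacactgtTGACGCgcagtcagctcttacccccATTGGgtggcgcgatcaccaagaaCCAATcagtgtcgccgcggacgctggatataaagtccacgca
*H2-D1* (chr17:35262844-35263143, plus strand): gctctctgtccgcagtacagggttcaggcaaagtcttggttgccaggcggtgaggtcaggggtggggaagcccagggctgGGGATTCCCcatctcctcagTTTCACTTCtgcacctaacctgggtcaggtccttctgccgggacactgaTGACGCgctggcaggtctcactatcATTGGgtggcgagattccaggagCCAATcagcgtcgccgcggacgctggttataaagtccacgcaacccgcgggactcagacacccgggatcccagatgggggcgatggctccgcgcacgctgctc
*B2m* (chr2:122147437-122147736, plus strand): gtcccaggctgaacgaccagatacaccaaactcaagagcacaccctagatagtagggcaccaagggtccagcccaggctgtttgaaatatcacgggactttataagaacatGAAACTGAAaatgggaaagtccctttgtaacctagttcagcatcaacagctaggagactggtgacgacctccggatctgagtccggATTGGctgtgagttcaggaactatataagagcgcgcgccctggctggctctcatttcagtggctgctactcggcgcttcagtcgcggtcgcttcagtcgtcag
*Tap1* (chr17:34187306-34187605, plus strand): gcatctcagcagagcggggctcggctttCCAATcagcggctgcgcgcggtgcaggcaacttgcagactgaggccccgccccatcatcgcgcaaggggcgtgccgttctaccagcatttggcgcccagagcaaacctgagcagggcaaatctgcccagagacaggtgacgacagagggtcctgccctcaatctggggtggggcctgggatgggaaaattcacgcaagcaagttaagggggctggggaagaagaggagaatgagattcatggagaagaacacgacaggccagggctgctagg
*Psmb8* (chr17:34197945-34198244, plus strand): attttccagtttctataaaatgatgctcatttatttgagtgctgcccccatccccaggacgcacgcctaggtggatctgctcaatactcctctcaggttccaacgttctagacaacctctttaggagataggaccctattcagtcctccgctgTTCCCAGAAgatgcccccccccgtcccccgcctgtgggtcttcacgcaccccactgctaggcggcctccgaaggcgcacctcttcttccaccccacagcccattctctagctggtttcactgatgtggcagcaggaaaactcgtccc

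The heavy chain genes shared the same order of elements. Both windows held GGGATTCCC, then TTTCACTTC, then TGACGC and then ATTGG with CCAAT, and the aligned parts of both windows (239 bases) were 88.3% identical. In *H2-K1* the response element began 90 bases before the start shown and 104 bases before a second RefSeq start. In *H2-D1* it began 150 bases before the start. Among all 32851 RefSeq windows of mouse genes, 14.8% held a match to the interferon-stimulated response element, 8.30% to the gamma-activated sequence, 0.767% to enhancer A, 7.40% to TGACGC and 37.4% to CCAAT. *B2m* had a response element match, GAAACTGAA, 139 bases before its start, and *Psmb8* had a gamma-activated sequence, TTCCCAGAA, 97 bases before its start. The window of *Tap1* held 1 CCAAT and none of the others. It shared 275 of its 300 bases with the window of *Psmb9*, which is read in the opposite direction from a start 226 bases away. Windows were at hand for 8 of the 10 members, *Tap2* and *Nlrc5* being the others, and those of *Tapbp*, *Psmb9* and *Psmb10* held no match to the interferon elements. A match is a description of letters and not a binding site.

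Of the 10 members, 7 lie on chromosome 17 within the MHC region (GENCODE M21 positions on GRCm38). *Tapbp* spans 33915899 to 33929292, *H2-K1* 33996017 to 34000347, *Psmb9* 34181987 to 34187764, *Tap1* 34187553 to 34197225, *Psmb8* 34197721 to 34201454, *Tap2* 34203527 to 34216321 and *H2-D1* 35262730 to 35267499. *B2m* is on chromosome 2 (122147686 to 122153083), and *Nlrc5* (94434356 to 94527272) and *Psmb10* (105935735 to 105938444) are on chromosome 8. *Tap1* and *Psmb9* overlap head to head by 212 bases of exon, which is 3.87% of *Tap1* exons and 5.79% of *Psmb9* exons, and whether the counting used strand is not given in the sources used here. GRCm38 is the genome of C57BL/6 (H2 haplotype b), while BALB/c mice carry haplotype d. Reads of *H2-K1* and *H2-D1*, which also resemble other class I genes, were therefore aligned to another haplotype, and the effect of this on their counts was not tested.

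Comparison of L with WT skin asked whether class I presentation genes differ between lesions of *Ifnk* TG mice and WT skin. Genotype, lesion and possibly body site differ together here and cannot be told apart. The log2 fold change was positive for all 10 members, and 5 of 10 passed an adjusted p of 0.05 with edgeR's quasi-likelihood F-test, all of them higher in L skin: *H2-K1*, *Tap1*, *Tap2*, *Psmb8* and *Psmb9*. Over all genes tested, 43.1% passed in this comparison and 4386 genes of 19101 passed as higher, so a passing member stood among very many. The median log2 fold change of the members was 0.75 against 0.06 for all tested genes. Separation was less complete, because for 2 of 10 members every L library lay above every WT library, whereas 49.4% of all genes had no overlap in either direction.

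The transporter and the inducible subunits had the largest differences. *Tap1* was at 224, 197, 256 and 67.5 CPM in the L libraries (replicates 4, 5, 6 and 7), at 106 and 90.7 CPM in NL and at 76.7, 60.0 and 55.7 CPM in WT. Of the L libraries 3 were far above WT and replicate 7 fell inside the WT range. The log2 fold change was 1.54 ± 0.40 (SE, adjusted p = 0.0159), a 2.90-fold rise. *Psmb9* was at 133, 106, 160 and 37.3 CPM in L, 49.4 and 33.7 CPM in NL and 35.4, 33.2 and 30.7 CPM in WT, a log2 fold change of 1.72 ± 0.44 (SE, adjusted p = 0.0144). The lowest L library was just above the highest WT library. *Psmb8* was at 209, 133, 254 and 74.3 CPM in L, 80.7 and 71.2 CPM in NL and 62.8, 60.3 and 57.3 CPM in WT, a log2 fold change of 1.48 ± 0.37 (SE, adjusted p = 0.0130). *Psmb8* and *Psmb9* were the members with no overlap between L and WT.

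*Tap2*, the partner of *Tap1*, was at 114, 106, 174 and 50.02 CPM in L and at 59.3, 50.7 and 52.2 CPM in WT, with a log2 fold change of 1.04 ± 0.35 (SE, adjusted p = 0.0398). The NL libraries were at 69.2 and 65.7 CPM. The third immunoproteasome subunit, *Psmb10*, behaved less evenly. It was at 46.2, 30.5, 74.7 and 23.8 CPM in L, at 25.8 and 22.02 CPM in NL and at 25.4, 29.4 and 23.5 CPM in WT, and its log2 fold change of 0.75 ± 0.36 (SE) did not pass (adjusted p = 0.123). *Tapbp* was at 184, 148, 238 and 95.7 CPM in L and at 112, 117 and 95.7 CPM in WT (log2 fold change 0.62 ± 0.27 SE, adjusted p = 0.0933).

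The class I chains themselves were abundant in every skin sample and differed by smaller factors. *H2-K1* was at 331, 345, 356 and 190 CPM in L, at 240 and 184 CPM in NL and at 199, 196 and 151 CPM in WT, a log2 fold change of 0.75 ± 0.23 (SE, adjusted p = 0.0284). *H2-D1* was at 1826, 1710, 1899 and 1067 CPM in L and at 1172, 1189 and 960 CPM in WT, and its log2 fold change of 0.55 ± 0.22 (SE) had an adjusted p of 0.0723. *B2m* was at 1559, 1556, 1725 and 986 CPM in L and at 1162, 1055 and 880 CPM in WT, with 0.50 ± 0.21 (SE, adjusted p = 0.0867). For all 3 chains, L replicates 4, 5 and 6 lay above every WT and NL library and replicate 7 lay within the WT range.

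*Nlrc5* had the highest p of the members. Its L libraries were at 57.6, 52.1, 94.7 and 25.0 CPM, the NL libraries at 56.1 and 52.8 CPM and the WT libraries at 51.8, 34.1 and 34.5 CPM. The lowest value of all 9 libraries was in L replicate 7, and the log2 fold change of 0.51 ± 0.39 (SE) did not pass (adjusted p = 0.314).

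**Figure D1:**
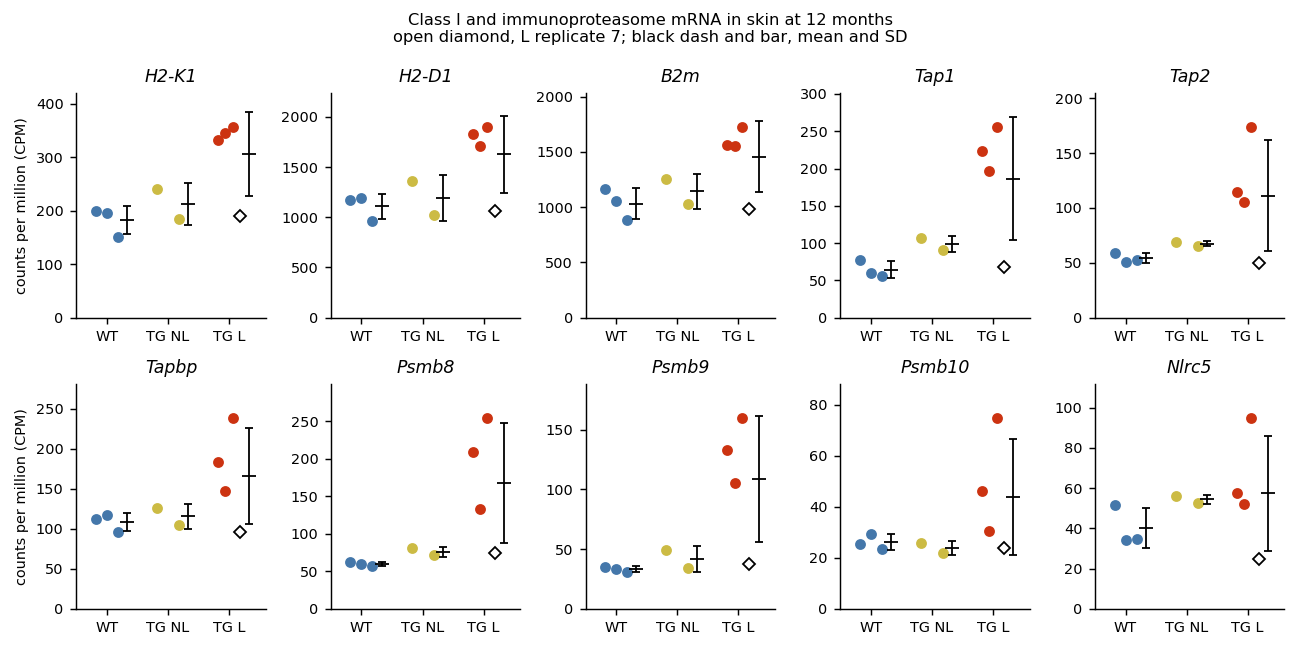
CPM (y axis, linear from 0) of the 10 members in each skin library of WT (n = 3), NL (n = 2) and L (n = 4) skin, with mean and SD beside the points. In all 10 panels at least 3 of the 4 L libraries lie above the mean of WT, and L replicate 7 (open diamond) lies at or near the WT and NL points, at 67.5 CPM of *Tap1* against 197 to 256 CPM in the other L libraries.

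How many members passed depended on which libraries were included. Without L replicate 7, all 10 members passed against WT, with log2 fold changes from 0.65 for *B2m* to 2.00 for *Psmb9*, beside 42.5% of all genes in that fit. Leaving out L replicate 4, 5 or 6 left 3 members each, beside 42.5%, 40.3% and 39.6% of all genes. Leaving out WT replicate 8 left 3, WT replicate 9 left 2 and WT replicate 10 left 1, beside 34.2%, 33.0% and 32.9%. *Psmb8* passed in all 9 of these fits, *Psmb9* in 8 and *Tap1* in 7, while *Tap2* passed in 1 and *H2-K1* in 3. L replicate 7 differed from the other L libraries in markers too. It had the lowest summed keratinocyte expression of the L group (8004 CPM, others 17287 to 23583), the highest of 4 fibroblast genes (4386 CPM, others 1775 to 2492) and the lowest of 6 T cell genes (23.98 CPM, others 47.9 to 62.1). NL skin had 16164 to 18550 CPM of the keratinocyte genes and WT skin 8842 to 10914 CPM, so in this sum replicate 7 was below WT and NL skin above it. Single genes differed. In replicate 7, *Krt5* was at 1774 CPM, below the 2229 to 2739 CPM of WT. *Krt14* was at 1416 CPM, above the 1220 to 1374 CPM of WT. Whether these differences have a part in the class I values was not tested.

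Comparison of L with NL skin, both from *Ifnk* TG mice, asked what differs at the site of a lesion. All 10 log2 fold changes were positive, from 0.07 for *Nlrc5* to 1.39 for *Psmb9*, and 0 of 10 members passed with edgeR, where 25.0% of all genes did. At an unadjusted p under 0.05 there were 2 members, beside 39.0% of all genes. They were *Psmb9* (adjusted p = 0.0769) and *Psmb8* (log2 fold change 1.14 ± 0.42 SE, adjusted p = 0.0819). DESeq2 called both, but it called 5918 of all genes where edgeR called 4782. No member separated every L library from both NL libraries (49.4% of all genes did, in either direction). Without L replicate 7, 7 of 10 members passed, beside 24.7% of all genes, the exceptions being *B2m*, *Psmb10* and *Nlrc5*. This comparison and that with WT share the L libraries.

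Between NL and WT skin no difference in the members passed. Of the members 9 had positive log2 fold changes, between 0.09 and 0.62, and *Psmb10* had -0.13. None passed with edgeR, as was the case for all genes (0% called, 1465 genes or 7.67% at an unadjusted p under 0.05, 62 genes called by DESeq2). No member had an unadjusted p under 0.05 either. *Tap1* had the largest value, 0.62 ± 0.45 (SE, adjusted p = 0.765), and its 95% interval from -0.27 to 1.51 was wide. For 4 members (*Tap1*, *Tap2*, *Psmb8* and *Nlrc5*) both NL libraries lay above all 3 WT libraries, beside 35.0% of all genes with no overlap in either direction. All 5 keratinocyte markers had positive log2 fold changes here (0.72 to 1.06) and all 4 fibroblast and 4 macrophage markers negative ones (-0.80 to -0.44 and -0.74 to -0.42), of which 0 passed. Their part in the members' values was not tested.

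**Figure D2:**
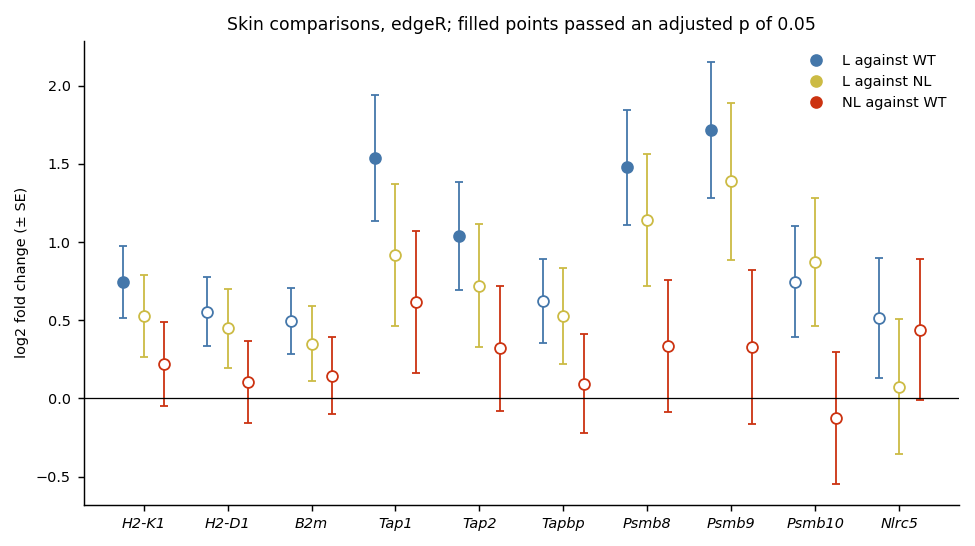
Log2 fold change ± SE (y axis) of each member (x axis) for L against WT, L against NL and NL against WT skin, from edgeR. Filled points passed an adjusted p of 0.05, which was the case for 5 members in L against WT and for none in the other comparisons, and the largest values were those of *Psmb9*, *Tap1* and *Psmb8*.

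The rest of the proteasome showed another pattern in the same libraries. The proteasome is a barrel of alpha and beta subunits (the 20S core) capped by regulators. All 3 constitutive catalytic subunits rose in L against WT skin: *Psmb5* by 0.69 ± 0.09 on the log2 scale (SE, adjusted p = 0.000543), *Psmb6* by 0.42 ± 0.08 (adjusted p = 0.00412) and *Psmb7* by 0.30 ± 0.10 (adjusted p = 0.0387). *Psmb5* was at 99.5, 107, 96.7 and 107 CPM in L replicates 4, 5, 6 and 7 and at 61.2, 68.1 and 61.7 CPM in WT. Here replicate 7 was as high as the other L libraries. Of 12 other 20S subunits tested, 11 rose and none fell, beside 43.1% of all genes called. The largest rises were those of *Psma7* (0.95 ± 0.10 SE) and *Psma1* (0.83 ± 0.10 SE). The remaining subunit, *Psma8*, was expressed at 0.280 CPM in L skin with a log2 fold change of 0.02. Against NL skin 3 of 3 and 11 of 12 rose, beside 25.0% of all genes called. NL skin had only 2 libraries, so these calls rest on few samples.

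Set against the mean of WT, the median log2 shift of the 15 20S genes outside the immunoproteasome (the barely expressed *Psma8* included) was 0.64, 0.67, 0.45 and 0.52 in L replicates 4 to 7. For the 3 immunoproteasome subunits it was 1.80, 1.15, 2.08 and 0.17. For the 6 genes of class I chains and peptide loading it was 0.82, 0.78, 1.06 and -0.05. The median of the core proteasome lay well above WT in every L library, and those of the class I and immunoproteasome genes in 3 of 4. In NL replicates 2 and 3, the 20S median was -0.02 in each, and the class I and loading median was 0.33 and 0.02.

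**Figure D3:**
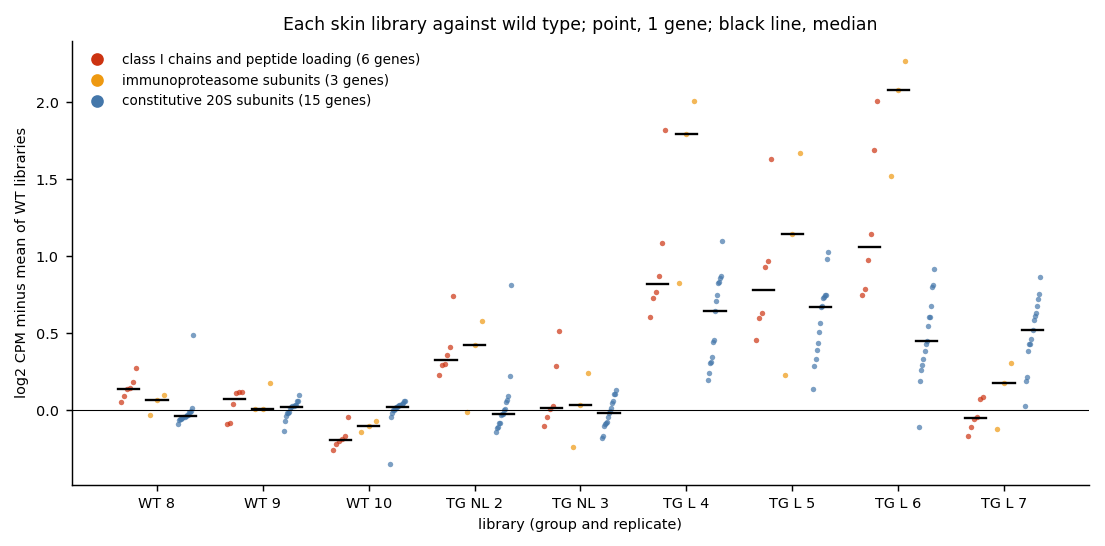
Log2 CPM of each gene minus its mean over WT libraries (y axis) in each of the 9 skin libraries (x axis), with the median as a black line. Shown are 6 class I and loading genes, 3 immunoproteasome subunits and 15 20S subunits drawn as constitutive, *Psma8* among them. In L replicate 7 the constitutive subunits have a median of 0.52 while the class I and loading genes have one of -0.05.

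Other proteasome parts were also higher in L than in WT skin. Of 21 subunits of the 19S regulator, which unfolds tagged proteins, 14 rose and none fell, beside 43.1% of all genes called. *Psmd13* (0.75 ± 0.09 SE) and *Psmd14* (0.68 ± 0.09 SE) led. Against the 2 NL libraries 9 rose, beside 25.0% of all genes called. Without WT replicate 8, 8 of the 19S list passed against WT, beside 34.2% of all genes. *Psme1* and *Psme2*, which form the interferon-inducible PA28 cap, rose by 0.89 ± 0.18 and 1.01 ± 0.20 on the log2 scale (SE, adjusted p = 0.00508 and 0.00382). Both passed against NL as well (0.72 and 0.97), though NL had only 2 libraries. Without WT replicate 10, 2 of the 4 activator genes passed against WT, beside 32.9% of all genes. *Psme2* was at 172, 159, 202 and 105 CPM in L and 77.3 to 83.0 CPM in WT. *Psme3*, another PA28 gene, rose by 0.42 ± 0.14 (SE, adjusted p = 0.0364), and *Psme4*, the PA200 cap, fell by 0.34 ± 0.10 (SE, adjusted p = 0.0198) on the log2 scale. Of 5 assembly factors, 2 rose, *Pomp* (0.72 ± 0.10 SE) and *Psmg3* (0.72 ± 0.18 SE). The median of the 20S list apart from the catalytic subunits was 0.62 and that of the 19S list 0.31, beside 0.06 for all genes. The muscle genes also differed between these groups, and were lower in L skin (15 to 5113 CPM) than in WT skin (17575 to 25913 CPM). The part of muscle content in these lists was not tested.

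The ratio of each inducible subunit to the constitutive subunit it replaces does not depend on library scaling. It was computed from counts per kb of annotated exon, and its level depends on the length used (with the median length of coding transcripts the log2 ratios shift by 1.77, 1.56 and -1.18), so only differences between libraries are compared. The log2 ratio of *Psmb9* to *Psmb6* was -1.09, -1.48, -0.67 and -2.91 in L, -1.95 and -2.52 in NL and -2.51, -2.67 and -2.78 in WT. Of the L libraries 3 were above every WT library and replicate 7 was below all of them. The mean difference between L and WT was 1.11, and a two-sided exact permutation test over the 7 libraries gave p = 0.229 (0.72 after adjustment over the 9 skin tests). For *Psmb8* over *Psmb5* the difference was 0.64 (exact permutation p = 0.343) and for *Psmb10* over *Psmb7* it was 0.32 (exact permutation p = 0.629). The smallest p that 4 against 3 libraries allow is 0.0571, so no ratio could pass.

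**Figure D4:**
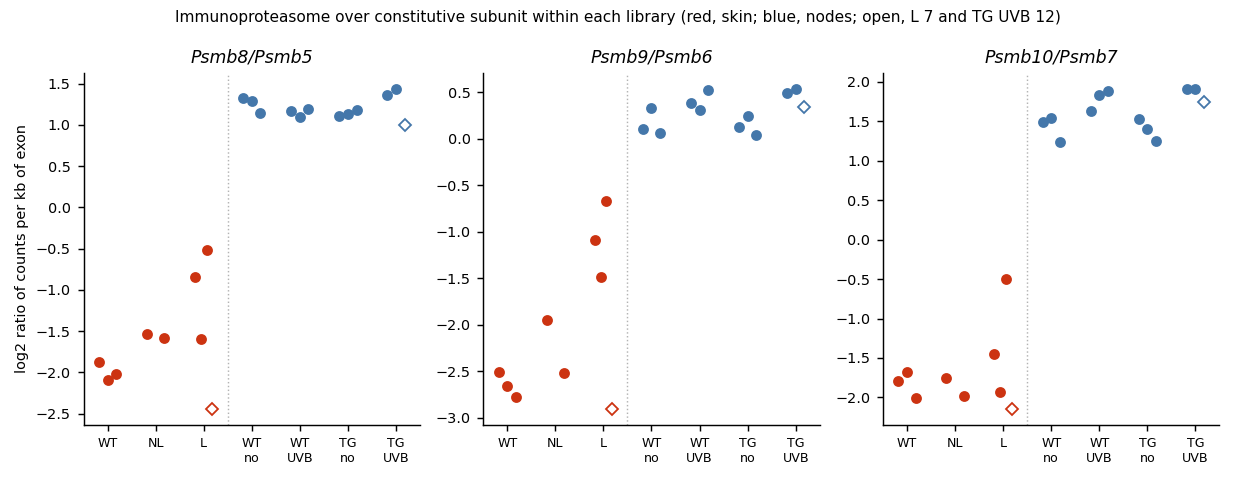
Log2 ratio of counts per kb of exon (y axis) of an immunoproteasome subunit over its constitutive counterpart in every library of skin (red) and lymph nodes (blue). L libraries spread from -2.91 to -0.67 for *Psmb9* over *Psmb6*, and L replicate 7 and TG UVB replicate 12 are drawn open.

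Of 20 other class I heavy chains tested, 9 rose and 2 fell in L against WT skin, beside 43.1% of all genes called, and 14 had positive log2 fold changes. The risers were 5 genes of the Q group apart from *H2-Q10* (*H2-Q1*, *H2-Q4*, *H2-Q5*, *H2-Q6* and *H2-Q7*), *H2-Q10* itself, and *H2-T10*, *H2-T22* and *H2-T23*. *H2-Q7* rose by 1.70 ± 0.42 on the log2 scale (SE, adjusted p = 0.0131), from 32.1 ± 4.54 CPM (SD, n = 3) to 104 ± 46.8 CPM (SD, n = 4). *H2-T23* (Qa-1, a ligand of inhibitory receptors on NK cells) was at 379, 275, 413 and 156 CPM in L and 130 to 166 CPM in WT. The falling genes present other ligands than peptides: *Cd1d1*, which presents lipids, fell by 1.31 ± 0.41 (SE, adjusted p = 0.0314) and *Mr1*, which presents vitamin B metabolites, by 0.71 ± 0.17 (SE, adjusted p = 0.00853) on the log2 scale. The other 9 chains did not pass: *H2-Q2*, *H2-T3*, *H2-T24*, *H2-M2*, *H2-M3*, *H2-M5*, *H2-M9*, *H2-K2* and *Cd1d2*. Against the 2 NL libraries only *Mr1* passed of these 20 (log2 fold change -0.97, adjusted p = 0.00710), beside 25.0% of all genes. Of the 20 chains, 14 passed against WT without L replicate 7 (9 against NL), beside 42.5% and 24.7% of all genes. Leaving out any other L library or any WT library left 2 to 7 against WT, beside 32.9% to 42.5% of all genes. These genes are close in sequence and can share reads with each other and with the members.

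Of 13 other genes of peptide trimming and loading, 9 rose and 1 fell against WT, beside 43.1% of all genes called. The leading changes were in the cytosolic peptidases *Lap3* (2.47 ± 0.25 SE, adjusted p = 0.000249) and *Blmh* (1.65 ± 0.14 SE, adjusted p = 0.000130), and *Lnpep*, an endosomal aminopeptidase, fell by 0.74 ± 0.12 (SE, adjusted p = 0.00155) on the log2 scale. In L replicate 7 the summed expression of this list was 3776 CPM, within the 3502 to 4001 CPM of the other L libraries and above the 2277 to 2314 CPM of WT. Against the 2 NL libraries, 6 rose and 2 fell, beside 25.0% of all genes called.

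Of 26 regulators of class I transcription, 3 rose and 2 fell in L against WT skin, beside 43.1% of all genes called. *Stat2* rose by 1.02 ± 0.34 and *Irf9* by 0.91 ± 0.25 (SE, adjusted p = 0.0395 and 0.0170), both parts of the factor activated by type I interferons. *Irf1*, a target of interferon gamma, was at 61.2, 36.2, 116 and 28.1 CPM in L and 23.7 to 25.5 CPM in WT, and its log2 fold change of 1.29 ± 0.46 (SE) missed the threshold (adjusted p = 0.0514). *Ifngr1*, a chain of the interferon gamma receptor, fell by 0.86 ± 0.19 and the kinase *Jak1* by 0.72 ± 0.16 (SE, adjusted p = 0.00778 and 0.00665) on the log2 scale. *Ciita*, the class II transactivator, had 0.92 ± 0.41 (SE, adjusted p = 0.0994), and *Rfx5*, which binds the X box, 0.24 ± 0.16 (SE, adjusted p = 0.255). The median of this list was 0.03. Its 5 calls became 8 without L replicate 7, beside 42.5% of all genes. They became 2 without WT replicate 9 or 10, beside 33.0% and 32.9%.

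MHC class II genes did not pass in any member of the list of 9 (log2 fold changes 0.38 to 0.93, adjusted p at least 0.0662), and L replicate 7 was again the low library at a summed 785 CPM against 1911 to 2720 CPM in the other L libraries. Without it 7 of 9 passed, beside 42.5% of all genes. Of 89 tested genes of the MHC region with other roles, 30 rose and 12 fell, beside 43.1% of all genes called in either direction. Within 1 Mb of *H2-K1* the numbers were 14 and 14 of 84 genes. Around *Tap1* they were 21 and 15 of 102 and around *H2-D1* 39 and 10 of 111. The largest rises in the region were those of *Ly6g6d* (8.27 ± 0.54 SE) and *Psors1c2*, a skin gene (7.44 ± 0.46 SE), and the largest falls those of *Hspa1l* (-3.08 ± 0.48 SE) and *Slc44a4* (-1.75 ± 0.43 SE).

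Some markers of leukocytes were also higher in L skin, and others were not. *Cd8a* was at 6.74, 11.9, 12.1 and 0.92 CPM in L replicates 4 to 7, at 1.13 and 0.12 CPM in NL and at 0.16 to 0.47 CPM in WT, and rose by 4.85 ± 1.11 on the log2 scale (SE, adjusted p = 0.00899). *Gzmb*, the protease of cytotoxic cells, rose by 5.41 ± 0.85 (SE, adjusted p = 0.00153) while *Prf1*, their pore-forming protein, fell by 1.82 ± 0.35 (SE, adjusted p = 0.00358). Of 4 pan-leukocyte genes 2 rose (*Cd52* by 1.55 and *Ptprc* by 0.59), of 6 T cell genes 3 (*Cd4*, *Cd8a* and *Cd8b1*, but not *Cd3e*, with -0.46), of 4 dendritic cell genes 1 (*Xcr1*, 2.07), and none of 4 B cell or 4 macrophage genes, the latter with log2 fold changes from -0.91 to -0.09. Summed, the pan-leukocyte genes were at 159 to 276 CPM in L and 122 to 206 CPM in WT. Of 5 keratinocyte genes 2 rose, *Krt1* by 1.90 and *Krt14* by 1.41, while 2 of 3 endothelial genes fell (*Kdr* by 1.21 and *Cdh5* by 1.11) and 1 of 4 fibroblast genes fell (*Dcn* by 0.89). Over all genes, 43.1% were called in this comparison in either direction. The share of any of these cell types in the members' expression was not tested.

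Over the 9 skin libraries the members moved closely together. Pearson's r of a member's log2 CPM with the mean z-score of the other 9 was 0.88 or more for 9 members and 0.78 for *Nlrc5*, as a description of 9 libraries that share groups. The 5 other named genes most like the mean of the members were *Prr13* (r = 0.98), *H2-Q6* (0.98), *H2-T23* (0.98), *H2-T10* (0.97) and *Irf9* (0.97).

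Lymph nodes showed less variation between libraries. The highest library exceeded the lowest by a ratio of 1.23 (*Tap2*) to 2.15 (*Nlrc5*) in nodes and of 1.962 (*B2m*) to 5.19 (*Psmb9*) in skin. *H2-D1* ranged from 1491 to 2001 CPM and *B2m* from 1214 to 1978 CPM over 12 libraries, *Tap1* from 262 to 375 CPM and *Psmb9* from 115 to 172 CPM. The tables of skin and nodes were made separately, so no test was made between the tissues.

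The effect of UVB in WT nodes was assessed first. No member passed with edgeR, beside 4.98% of all genes. *Nlrc5* had the largest value and the only unadjusted p under 0.05 among the members. It was at 191, 219 and 140 CPM without UVB and at 258, 274 and 271 CPM after UVB, a log2 fold change of 0.55 ± 0.22 (SE, adjusted p = 0.142). Every irradiated WT library lay above every untreated one. The other members had log2 fold changes from -0.24 (*Tapbp*) to 0.13 (*Tap2*). In all, 4 members did not overlap between the groups (*Nlrc5* and *Tap2* higher, *H2-D1* and *Tapbp* lower), beside 37.1% of all genes. *Tapbp* was at 432, 452 and 525 CPM without and at 392, 389 and 415 CPM after UVB (log2 fold change -0.24 ± 0.11 SE, adjusted p = 0.209). The number of genes called in this comparison rested on single libraries, since it was 0 without WT UV replicate 8, 7 without WT NoTx replicate 3 and 2644 without TG UV replicate 12, against 805 with all libraries. WT UV replicate 8 also had 40.8 CPM of the heat-shock gene *Hspa1a*, where the other nodes had 0 to 3.52 CPM, and 3 of 5 erythroid genes fell with UVB in WT nodes, their summed expression being 121 to 261 CPM without and 10.8 to 39.5 CPM after UVB. The part of these in the result was not tested.

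In *Ifnk* TG nodes all 10 members had positive log2 fold changes with UVB, from 0.03 (*Psmb8*) to 0.47 (*Nlrc5*), with a median of 0.22 beside 0.02 for all genes. Without TG UV replicate 12, *H2-D1* (-0.0428) and *Psmb8* (-0.0335) were negative, and without TG NoTx replicate 5 *Psmb8* was (-0.0025), so the common sign rested on single libraries. None passed with edgeR, and neither did any other gene (0% called, 1507 genes or 9.32% at an unadjusted p under 0.05, 134 genes called by DESeq2). *Tapbp* (0.32 ± 0.11 SE), *Tap1* (0.28 ± 0.11 SE), *H2-K1* (0.24 ± 0.10 SE) and *Psmb10* (0.23 ± 0.10 SE) had unadjusted p-values under 0.05, with adjusted p from 0.427 to 0.526. For 4 members (*H2-K1*, *Tap2*, *Psmb9* and *Psmb10*) every irradiated TG library lay above every untreated one, beside 13.3% of all genes without overlap. *H2-K1* was at 390, 345 and 347 CPM without UVB and at 392, 411 and 479 CPM after it.

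TG UV replicate 12 stood apart from the other irradiated TG nodes, and not in 1 direction. It had 160 CPM of *Nlrc5* where replicates 10 and 11 had 302 and 298 CPM, and 287 CPM of *Tap1* where they had 370 and 375 CPM. Yet it had the highest *H2-K1* (479 CPM), *H2-D1* (2001 CPM) and *B2m* (1978 CPM) of all 12 nodes. Summed expression of other class I heavy chains was 1301 CPM in it and 1834 and 1717 CPM in replicates 10 and 11. Without it, *Nlrc5* passed for UVB in TG nodes (log2 fold change 0.70, adjusted p = 0.0368) and in WT nodes (0.52, adjusted p = 0.0167), beside 1.42% and 15.9% of all genes.

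**Figure D5:**
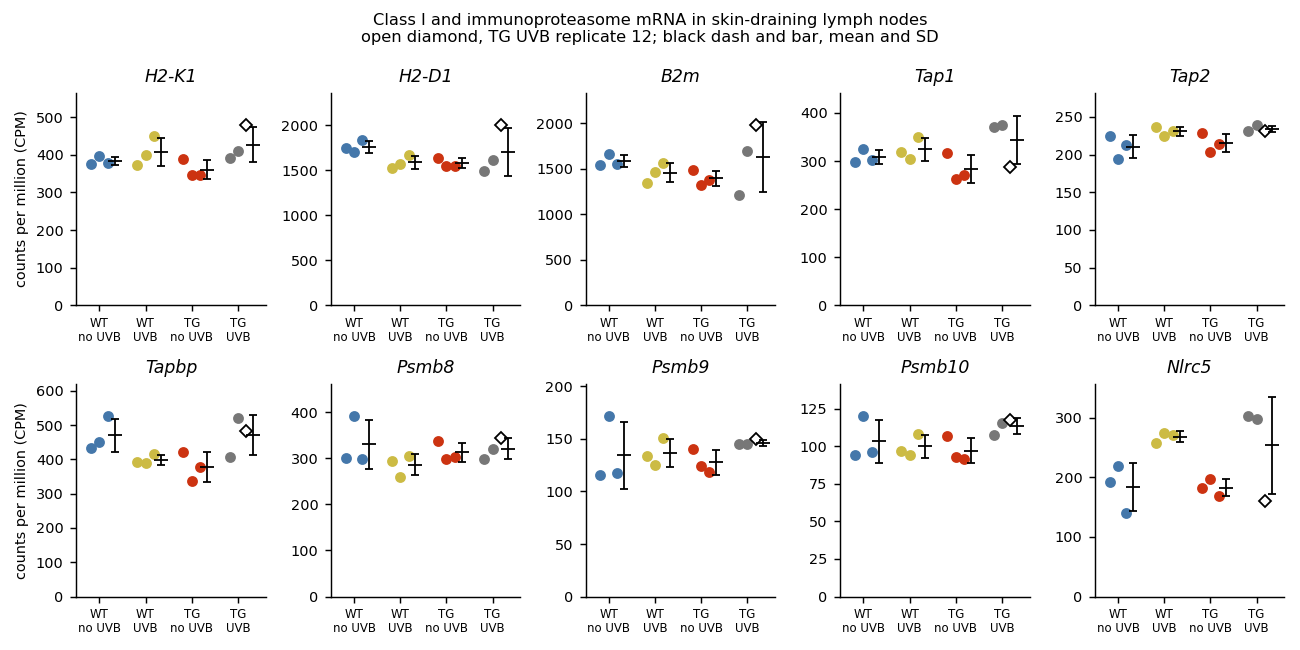
CPM (y axis, linear from 0) of the 10 members in lymph node libraries of WT and *Ifnk* TG mice without and with UVB (n = 3 each), with mean and SD. *Nlrc5* shows 258 to 274 CPM in irradiated WT nodes against 140 to 219 CPM in untreated ones. TG UVB replicate 12 (open diamond) is at 160 CPM of *Nlrc5*.

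No member passed between genotypes in nodes. Without UVB, 9 of 10 members had negative log2 fold changes in TG against WT nodes, the lowest that of *Tapbp* (-0.31 ± 0.11 SE, adjusted p of 1), and 0 passed (0% of all genes; 549 genes or 3.39% at an unadjusted p under 0.05, 1 member among them; 2 genes by DESeq2). The groups did not overlap for 3 members, *H2-D1*, *B2m* and *Tapbp*, all lower, beside 10.5% of all genes. Without WT NoTx replicate 2, *Psmb8*, *Psmb9*, *Psmb10* and *Nlrc5* turned positive (0.0285 to 0.14) and *Tap2* negative. After UVB 9 of 10 were positive, with log2 fold changes from -0.08 (*Nlrc5*) to 0.24 (*Tapbp*), and again 0 passed (0% of all genes, 1131 genes or 6.99% at an unadjusted p under 0.05 with 0 members, 21 genes by DESeq2). For no member were the groups without overlap (9.71% of all genes). Without TG UV replicate 12, *H2-K1* (-0.0208) and *H2-D1* (-0.0323) were negative and *Nlrc5* (0.17) positive. The 95% interval of the *Tap1* difference after UVB was -0.14 to 0.30.

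Whether the response to UVB differed by genotype was tested as an interaction. None of the members passed, nor did any gene with edgeR (0%, 881 genes or 5.45% at an unadjusted p under 0.05, 5 genes by DESeq2). *Tapbp* had the largest value, 0.55 ± 0.16 (SE, unadjusted p = 0.00446 in edgeR's test, adjusted p = 0.848), with -0.24 for UVB in WT nodes and 0.32 in TG nodes.

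In nodes, edgeR calls among the partners of the members came only with UVB in WT nodes, where 4.98% of all genes passed. There 2 of 26 regulators rose, 1 of 18 other class I chains rose and 1 fell, and 1 of 3 constitutive catalytic subunits fell. In WT nodes after UVB, *Irf1* rose by 0.53 ± 0.11 (SE, adjusted p = 0.0303) and *Nfya*, a subunit of the CCAAT-binding factor, by 0.40 ± 0.08 (SE, adjusted p = 0.0287) on the log2 scale. *Irf1* was at 219, 240 and 186 CPM without and at 283, 343 and 308 CPM after UVB, with no overlap. Of the other class I chains *H2-Q10* rose (1.45) and *Mr1* fell (-0.51), and of the proteasome *Psmb7* fell by 0.40 ± 0.10 (SE, adjusted p = 0.0439), while no other gene of the proteasome, loading or class II lists passed. *Psmb7* was at 67.4, 82.4 and 81.3 CPM without and at 63.1, 53.2 and 58.7 CPM after UVB. These calls share the dependence on single libraries given above. In TG nodes no gene of any list passed in the UVB comparison.

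The log2 ratio of *Psmb10* to *Psmb7* was 1.24 to 1.54 in untreated and 1.63 to 1.89 in irradiated WT nodes, and 1.26 to 1.53 and 1.74 to 1.91 in TG nodes. In both genotypes the groups did not overlap, with differences of 0.35 and 0.45, each at the smallest p that 3 against 3 libraries allow (exact permutation p = 0.1, 0.4 after adjustment over 12 node tests). *Psmb10* itself differed by -0.05 and 0.23 and *Psmb7* by -0.40 and -0.22 on the log2 scale in WT and TG nodes. The ratio of *Psmb9* to *Psmb6* differed by 0.32 in TG nodes without overlap (exact permutation p = 0.1, 0.4 adjusted) and by 0.24 in WT nodes with overlap (exact permutation p = 0.2, 0.48 adjusted), and that of *Psmb8* to *Psmb5* differed by -0.10 and 0.13 in WT and TG nodes with overlap.

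In nodes the members moved less as a unit. Pearson's r of a member with the mean of the other 9 ran from 0.10 for *Nlrc5* and 0.22 for *Tap2* to 0.90 for *Psmb10* over 12 libraries. The other genes most like the members' mean were *Ly6a* (r = 0.94), *Ppa1* (0.91), *Ly6e* (0.91), *Ly6c1* (0.90) and *AC147806.2* (0.89). *Nlrc5* was thus the member least like the others in nodes as it was in skin.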

How the data were processed

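RNA was measured in 9 skin and 12 lymph node libraries. The authors sequenced poly-A libraries (151-base paired reads), trimmed them with cutadapt 4.8, aligned them to GRCm38 with STAR 2.7.8a, estimated counts with RSEM 1.3.3 and deposited expected counts per gene, as whole numbers without normalization. Groups came from the labels. Members were matched by symbol, and the members and gene lists were chosen with earlier results of these data known. Gene positions and exon lengths came from GENCODE M21 and start regions from RefSeq (GRCm38.p6).

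In edgeR 4.0.16, filterByExpr removed genes with few counts (minimum 10), TMM set the scaling, and each tissue was fitted as a whole with the robust quasi-likelihood model in R 4.3.3. Adjusted p-values are Benjamini-Hochberg values of edgeR's F-test over all tested genes, with a threshold of 0.05. CPM used the scaled library sizes. Standard errors were derived from the F statistic and 95% intervals are 1.96 SE on either side. Subunit ratios were compared by two-sided exact permutation of libraries. Named genes were the members, the catalytic, PA28 and regulator genes and other class I chains given above, list genes that passed with the largest changes of each list (at most 2 in each direction) and the 5 genes most correlated with the members. Cell type markers were named after their values were seen. Alternatives were DESeq2 1.42.0, RLE and upper-quartile scaling, other filters, the compared groups alone, no robust estimation, an adjusted p under 0.01, and each library left out. The fit was tested on simulated counts. As a share of the library total, 3 counts were 5.31e-06% to 7.41e-06% in skin and 8.24e-06% to 1.09e-05% in nodes. Without molecular identifiers these floors cover counting error only. Libraries of a group differed by far more than sampling noise (mean chi-square per gene 14.3 or more). One gene of the regulator list is counted but not reported here.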

Additional observations from a re-analysis of the deposited data

Results flagged for a closer look

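In L skin, *H2-K1* of replicate 7 stood far from the other libraries. On the log2 CPM scale its gap to the nearest L library was 0.886 of the range of the group, above Dixon's 95% critical value for 4 samples, which chance passes in about 1 of 20 groups. The low library was at 190 CPM and the others at 331 to 356 CPM. The other 9 members and the 3 subunit ratios, tested in the same way, stayed under the limit, with *H2-D1* at 0.818, *B2m* at 0.815 and *Tap1* at 0.804.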

How the results depend on the processing

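For L against WT skin, 5 members passed in the report, 3 with the compared groups fitted alone and 0 at an adjusted p under 0.01, and between 1 and 10 without 1 library. Over all genes, 8237 passed in the report, 7456 with the compared groups alone and 6243 to 8028 without 1 library. How many of all genes passed at 0.01 is not given here. For L against NL skin, DESeq2 called 2 members where edgeR called 0, and leaving out libraries gave 0 to 7. Of all genes, DESeq2 called 5918 there and edgeR 4782. For UVB in WT nodes 1 member (*Nlrc5*) passed with the compared groups alone, and 0 to 1 passed without 1 library, as in TG nodes. In the other comparisons 0 members passed with edgeR or DESeq2 under every alternative run. All-gene calls for UVB in WT nodes ran from 0 to 2644 without 1 library and were 1972 with DESeq2 and 2431 with the compared groups alone. For L against NL skin they were 3156 with the compared groups alone and 1182 to 5187 without 1 library.

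Most changes of sign came when a library was left out. With all libraries, *Nlrc5* in TG against WT nodes without UVB went from -0.0065 to between 0.00024 and 0.0115 with DESeq2, RLE or upper-quartile scaling or no filter, and *Psmb9* for UVB in WT nodes from 0.0203 to -0.0040 with upper-quartile scaling. Leaving out a library, the log2 fold change of *Nlrc5* in L against NL skin ran from -0.28 to 0.33. In NL against WT skin it ran from -0.11 to 0.26 for *H2-D1*, -0.0031 to 0.25 for *B2m* and -0.0496 to 0.20 for *Tapbp*. In WT nodes with UVB it ran from -0.0097 to 0.12 for *Tap1* and -0.0118 to 0.15 for *H2-K1*. *Psmb9* and *Psmb10* also changed sign there, and *Nlrc5* (to 0.18 without TG UV replicate 12), *Psmb9* and *Tap2* did in the interaction, besides the changes in nodes given in the report, which *Nlrc5* and *Tap2* without UVB also showed without some other libraries. The difference in log2 ratio ran from -0.0666 to 0.57 for *Psmb8* over *Psmb5* in L against NL skin. For *Psmb10* over *Psmb7* it ran from -0.0134 to 0.54 in L against WT skin, -0.16 to 0.0709 in NL against WT skin, -0.12 to 0.0403 in TG against WT nodes without UVB and -0.0067 to 0.13 with it. For *Psmb9* over *Psmb6* in TG against WT nodes without UVB it ran from -0.0814 to 0.0541. The cause of these changes was not tested.

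No paired analysis was possible because the mouse of each library is not given. Replicate numbers are sample numbers from the titles, so whether L and NL libraries share mice is not known.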
